A study of Mus musculus with 14 samples.

Results

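The 77 genes described here encode the proteins of the cytosolic ribosome. They are the rows of a deposited table of 55228 gene symbols whose symbol follows the Rpl or Rps pattern of a ribosomal protein, together with Rplp0, Rplp1, Rplp2 and Rpsa. Pseudogene rows and kinases were left out. Of the 77 genes, 46 belong to the large subunit and 31 to the small subunit, and all 77 were among the 11757 genes tested.

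Mouse epidermal cells were taken from the tail of Lrig1CreER/Rosa-TdTomato animals, a genotype in which the Lrig1 gene drives an inducible recombinase and marks Lrig1-lineage cells with a red reporter. The cells, labelled Lrig1 GL Sca1+, were sorted and grown for 1 week in keratinocyte medium, so they are cultured progeny of sorted cells. The distal group comprised 6 libraries from the memory region, and the control group 8 libraries from the non-memory region. Both groups carry the time label 8w pw1 and the treatment label none. The sample descriptions, not the titles, number 2 sets per region, with 2 and 4 libraries in the distal sets and 6 and 2 in the control sets. The labels do not say whether a set is an animal, a sort or a plate, or whether set 1 of a region belongs with set 1 of the other, so p-values measure the spread between these libraries.

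Ribosomal proteins assemble with ribosomal RNA into a large subunit, which joins amino acids, and a small subunit, which reads the messenger RNA. A ribosome holds about equal amounts of nearly all of them. Their mRNAs typically start with a run of pyrimidines, the 5′ TOP element, through which mTOR signalling and Larp1 control their translation. Several members carry further roles, such as Rpl5 and Rpl11, which bind 5S ribosomal RNA and can hold back the p53 inhibitor Mdm2.

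Most ribosomal protein genes were higher in distal cells, and a small group was lower. Of the 77 genes, 53 rose and 7 fell in distal cells at an adjusted p under 0.05 (edgeR quasi-likelihood test, Benjamini-Hochberg over all tested genes), and 17 did not pass. In the background of all 11757 tested genes 24.3% rose and 24.1% fell. The median log2 fold change, distal over control, was 0.96 for the 77 genes and -0.16 for all tested genes. In bulk samples, fewer cells of a type and less RNA per cell cannot be told apart. The 7 genes that fell were Rpl5, Rpl30, Rpl23, Rpl39, Rps15a, Rpl35a and Rps3a1. In control cells they stood among the most abundant ribosomal protein mRNAs.

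Base composition of the members ran along with their fold changes, with overlap. G or C stood at the last base of 46.1 to 57.7% of codons in the 7 genes that fell (median 52.7%) and of 52.1 to 86.8% in the 53 that rose (median 64.3%). The first 150 coding bases are shown for Rpl5 and Rpl23, which fell, and for Rps15 and Rpl29, which rose, with capitals at the last base of each codon where it is G or C. They come from GENCODE transcripts on GRCm38, of genes at chr5:107900502-107909005 (Rpl5, plus strand), chr11:97777527-97782437 (Rpl23, minus strand), chr10:80292453-80294114 (Rps15, plus strand) and chr9:106429454-106431568 (Rpl29, plus strand).
Rpl5: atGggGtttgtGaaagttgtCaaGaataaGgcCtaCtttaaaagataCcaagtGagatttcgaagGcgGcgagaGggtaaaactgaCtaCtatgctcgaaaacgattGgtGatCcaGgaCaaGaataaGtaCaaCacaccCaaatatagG
Rpl23: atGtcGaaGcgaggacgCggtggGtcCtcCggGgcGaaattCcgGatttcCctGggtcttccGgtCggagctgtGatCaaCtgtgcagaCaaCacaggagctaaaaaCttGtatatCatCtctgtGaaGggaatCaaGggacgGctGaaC
Rps15: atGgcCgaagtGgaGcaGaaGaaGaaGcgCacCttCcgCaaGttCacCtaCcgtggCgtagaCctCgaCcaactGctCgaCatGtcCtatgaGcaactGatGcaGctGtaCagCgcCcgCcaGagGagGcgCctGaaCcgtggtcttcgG
Rpl29: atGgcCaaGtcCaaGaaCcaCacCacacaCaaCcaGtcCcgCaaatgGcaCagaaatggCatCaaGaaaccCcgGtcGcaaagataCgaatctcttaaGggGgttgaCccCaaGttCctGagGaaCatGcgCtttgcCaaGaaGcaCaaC
In these stretches of 50 codons, 26 last bases were G or C in Rpl5 and 31 in Rpl23, against 41 in Rps15 and 38 in Rpl29. Over the whole coding sequence the share was 49.0% in Rpl5, 46.1% in Rpl23, 84.9% in Rps15 and 69.6% in Rpl29.

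A pyrimidine run near the annotated transcript start was present in some members that rose, some that fell and some that did not pass. Windows of 30 bases, 20 of them before the annotated start, are shown for Rpl38, which rose, Rps6, which did not pass, and Rpl5 and Rpl23, which fell. Capitals mark a run of at least 8 C or T bases. In Rpl38 and Rps6 the run spans the annotated start, while in Rpl5 it lies wholly before it. Rpl23 has no such run in this window. The sequences are from RefSeq on GRCm38.p6 and read along the gene.
Rpl38, chr11:114668560-114668589, plus strand: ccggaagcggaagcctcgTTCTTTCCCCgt
Rps6, chr4:86857358-86857387, minus strand: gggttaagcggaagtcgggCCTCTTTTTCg
Rpl5, chr5:107900508-107900537, plus strand: CTCTTTCTCacgtcgcttgcgtgctggtgg
Rpl23, chr11:97782430-97782459, minus strand: gctggacgaggtccggtcacgtggctgagt
A start window was at hand for 57 of the 77 genes. Within 30 bases on each side of the start, 32 of these 57 (56.1%) held such a run on the coding strand, against 25.7% of the other 26968 genes. On the other strand 8 of the 57 members and 28.8% of the other genes held one. A run was present in 23 of 40 members that rose, in 4 of 6 that fell and in 5 of 11 that did not pass. A match describes these letters and is no evidence of a working site.

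Depth differed between the groups: distal libraries held 2137934 to 4513518 counts and control libraries 4515646 to 7458872, with no overlap. Keratinocyte markers were abundant, with 20671 to 29287 summed CPM (counts scaled to a common library size with TMM factors) over 10 genes in distal libraries and 14310 to 21041 in control libraries. Of 9 keratinocyte markers tested, 4 rose and 3 fell in distal cells. The sort and label genes Ly6a (Sca1) and Lrig1 summed to 1323 to 1729 CPM in distal and 1288 to 2643 CPM in control libraries, and Lrig1 rose while Ly6a fell. Immune markers stayed at or below 1.37 CPM in sum in every distal library and 0.47 in every control library, and both Merkel cell markers were at 0. Fibroblast markers, with Lum at 0 throughout, summed to 2.30 to 88.7 CPM in distal libraries and 0.54 to 240.9 in control libraries, and their part in the results was not tested. Endothelial markers summed to at most 9.51 CPM in distal and 9.86 CPM in control libraries, with Cdh5 at 0, and melanocyte markers to at most 5.49 and 4.36 CPM, with Dct at 0.

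The ribosomal protein genes together took a larger share of the counts in distal libraries. The share was 5.33 and 5.69% in the distal libraries of set 1 and 3.47, 3.89, 4.08 and 4.83% in those of set 2. It was 2.70, 2.88, 2.58, 2.53, 2.99 and 3.67% in the control libraries of set 1 and 2.47 and 1.93% in those of set 2. Control replicate 6 exceeded distal replicate 3, so the groups overlapped by this pair. The pair holds the control library with the fewest counts (4515646) and the distal library with the most (4513518). Among distal libraries the share was lowest in replicates 3 and 4, which held the most counts. Among control libraries it was lowest in replicate 8 (5384872 counts), not in replicate 3, which held the most. The part of depth in the share was not tested. The means were 4.55 ± 0.87% in distal and 2.72 ± 0.50% in control libraries (SD, n = 6 and 8).

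Both subunits took part. Large subunit genes held 1.97 to 3.15% of the counts in distal libraries and 1.19 to 2.21% in control libraries, and small subunit genes 1.50 to 2.54% in distal and 0.74 to 1.47% in control libraries. Among the 46 large subunit genes, 33 were called higher (71.7%) and 5 lower (10.9%), and the median log2 fold change was 1.11. Among the 31 small subunit genes, 20 were called higher (64.5%) and 2 lower (6.45%), and the median was 0.90. Of all tested genes 24.3% were called higher and 24.1% lower.

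The balance of counts between the subunits shifted toward the small subunit in distal cells. The ratio of large to small subunit counts was 1.21 to 1.40 in distal libraries, with a median of 1.25, and 1.50 to 1.85 in control libraries, with a median of 1.54. No distal library reached the lowest control library. The 7 genes that fell held 6.64 to 13.4% of the ribosomal protein counts in distal libraries and 22.5 to 36.0% in control libraries. Distal replicates 3 and 4, which had the most counts of their group, were highest among distal libraries in both measures. They had 11.9 and 13.4%, and ratios of 1.31 and 1.40. Control replicate 6, with a total close to theirs, had 32.4% and a ratio of 1.51. The part of depth in both measures was not tested. Without these 7 genes the ratio was 1.16 to 1.24 in distal and 1.02 to 1.24 in control libraries, and the groups overlapped. Since the 7 were picked by their fall, these last values describe where the shift lay and test nothing.

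**Figure D1:**
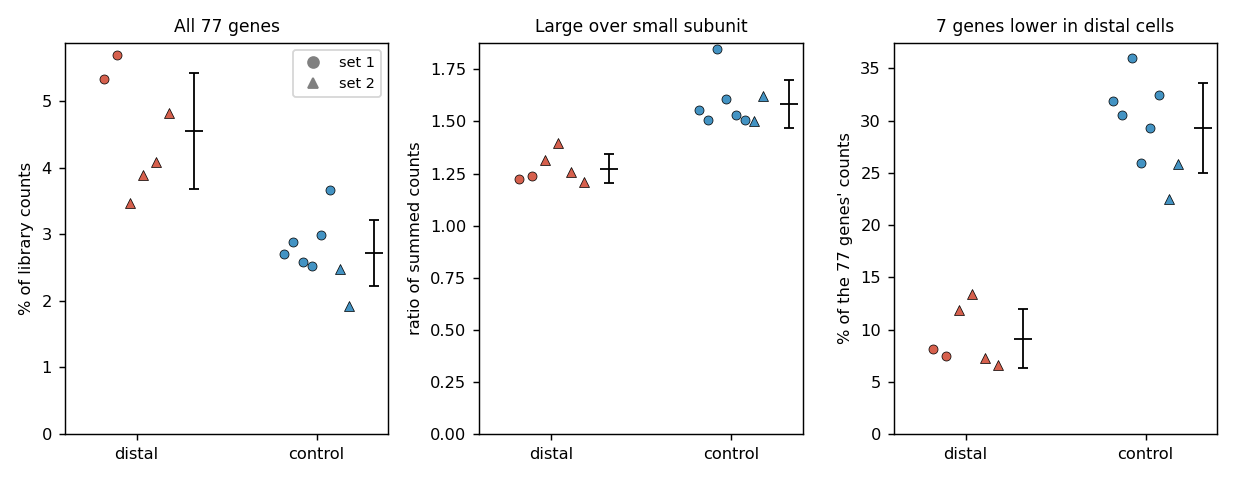
Share of each library's counts in the 77 ribosomal protein genes, ratio of large to small subunit counts, and share of the 77 genes' counts held by the 7 genes lower in distal cells; points are libraries (circles set 1, triangles set 2), bars the mean and SD of 6 distal and 8 control libraries. The share reaches 5.69% in distal libraries and 3.67% in control libraries, and the ratio stays at or below 1.40 in distal and at or above 1.50 in control libraries.

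The partners of the 5S particle in the large subunit moved in opposite directions. Rpl5 had 675, 597, 742, 945, 476 and 443 CPM in distal libraries, against 2690.4, 2312, 3789.5, 1506, 2235, 3496, 1493 and 1212 CPM in control libraries. Every distal value was below every control value, and control libraries spread over a wider range than distal ones. The log2 fold change was -1.86 ± 0.27 (SE, adjusted p = 2.97e-05, edgeR). Rpl11 ran the other way, at 276, 323 and 441 CPM (lowest, median, highest) in distal libraries against 119.9, 148 and 188 CPM in control libraries. It rose by 1.16 ± 0.15 on the log2 scale (adjusted p = 8.23e-06, edgeR), with every distal library above every control library. The ratio of Rpl5 to Rpl11 counts was 1.28 to 3.30 in distal and 9.04 to 28.6 in control libraries. It is read only between libraries, since the genes differ in length. The fall of Rpl5 was -1.07 without control set 1, whose libraries were mostly the highest, and -1.98 without control set 2.

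Rpl23 and Rpl30 fell with the same separation. Rpl23, a large subunit protein that like Rpl5 and Rpl11 is known to bind Mdm2, had 754, 769, 943, 1102, 548 and 578 CPM in distal libraries. It had 1933, 1934, 1928, 1763, 1990, 2589, 1361 and 1337 CPM in control libraries. The log2 fold change was -1.24 ± 0.19 (SE, adjusted p = 4.38e-05, edgeR), and with control set 1 left out it was -0.79 and no longer passed (adjusted p = 0.0571, edgeR). Rpl30, which lies at the interface of the subunits, had 242, 346 and 454 CPM in distal libraries (lowest, median, highest) against 642, 838 and 1478 CPM in control libraries. It fell by 1.38 on the log2 scale (SE 0.20, adjusted p = 3.71e-05, edgeR). Rpl5, Rpl23 and Rpl30 were the only members with every distal library below every control library, where 5.65% of all tested genes had such a pattern. Conversely 43 of the 77 members had every distal library above every control library, against 12.7% of all tested genes. They were 28 large and 15 small subunit genes.

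Rpl39, Rpl35a, Rps15a and Rps3a1 fell with overlapping groups. Rpl39, an X-linked gene for a very small protein in the wall of the exit tunnel through which the new chain leaves, had 414, 414, 848, 1187, 396 and 204 CPM in distal libraries. In control libraries it ranged from 865 to 1740.2 CPM with a median of 1143. Distal replicate 4 lay within the control range, and the log2 fold change was -1.14 ± 0.31 (SE, adjusted p = 0.00596, edgeR). It kept no call without control set 1 or in the libraries over 4000000 counts. Rps15a had 267, 354 and 428 CPM in distal libraries (lowest, median, highest) against 339.9, 633 and 1116 CPM in control libraries, with a log2 fold change of -0.85 ± 0.23 (SE, adjusted p = 0.00602, edgeR). Rpl35a had 288, 347 and 388 CPM in distal libraries against 339, 583 and 898 CPM in control libraries and fell by 0.73 on the log2 scale (SE 0.20, adjusted p = 0.00633, edgeR).

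For Rps15a and Rpl35a the control libraries of set 2 were the lowest of their group and lay among the distal values. Rps15a stood at 368 and 339.9 CPM there, and Rpl35a at 339 and 356 CPM. Rps3a1, a small subunit gene, had 548, 692 and 806 CPM in distal libraries against 765, 1035 and 1399 CPM in control libraries. Its log2 fold change was -0.57 ± 0.16 (SE, adjusted p = 0.00697, edgeR). With counts summed per set, so that each set is 1 sample, Rps15a, Rpl35a and Rps3a1 lost their calls, while Rpl5, Rpl23, Rpl30 and Rpl39 kept theirs.

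**Figure D2:**
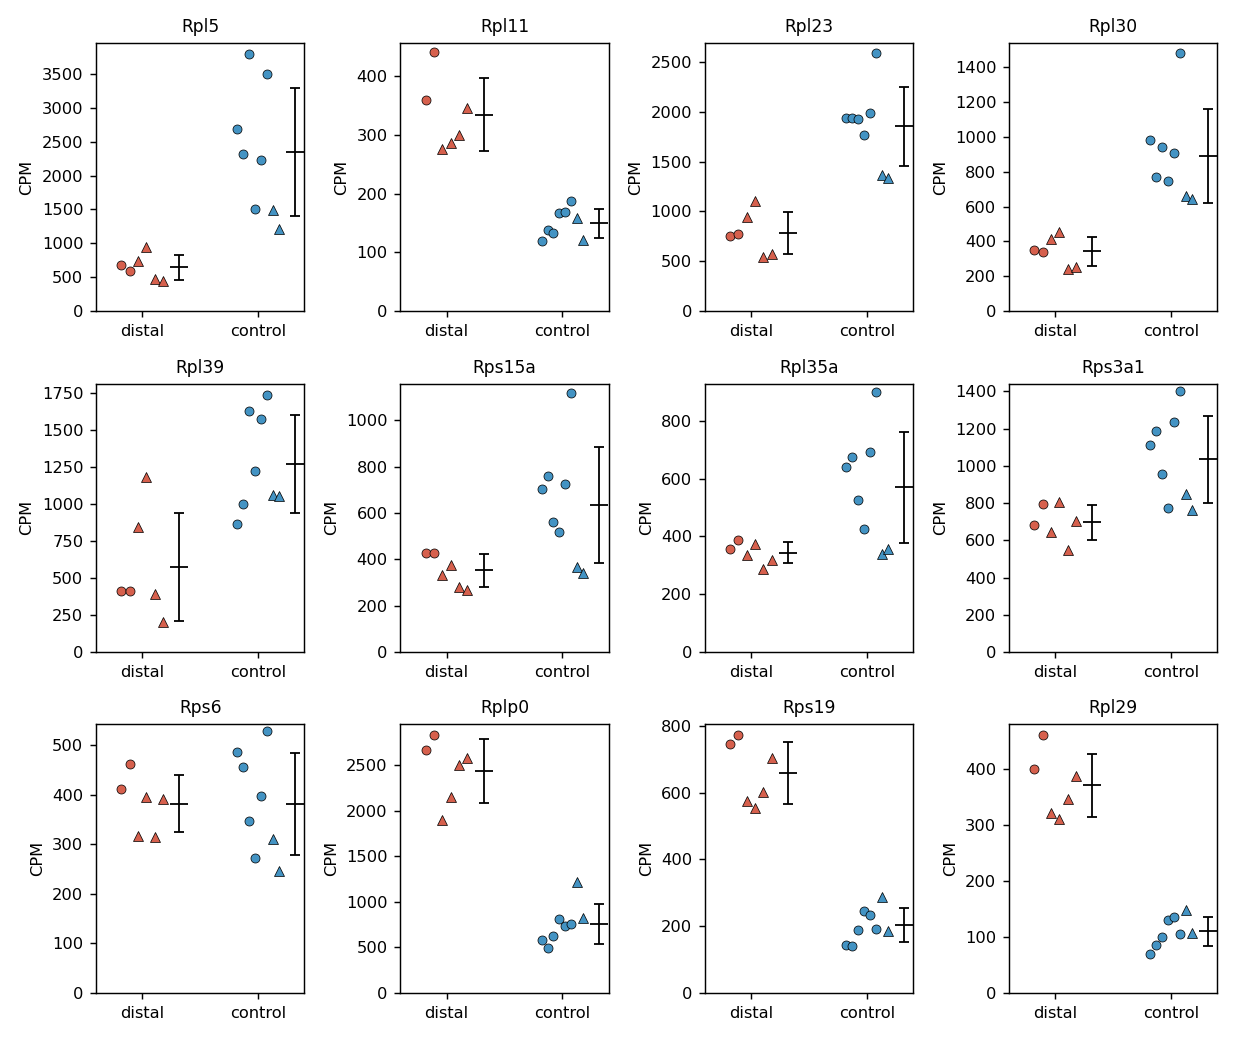
CPM of 12 ribosomal protein genes in each library (circles set 1, triangles set 2; bars show mean and SD of 6 distal and 8 control libraries, all axes linear from 0). Rpl5, Rpl23 and Rpl30 separate downward in distal libraries, Rpl11, Rplp0, Rps19 and Rpl29 upward, and Rps6 overlaps fully.

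The genes of the 3 proteins of the acidic stalk, which recruits elongation factors to the large subunit, all rose, against 24.3% of all tested genes. Rplp0, the stalk base, had 1896, 2539 and 2831 CPM in distal libraries (lowest, median, highest) against 495, 744 and 1217 CPM in control libraries. All distal libraries lay above all control libraries, and the log2 fold change was 1.69 ± 0.18 (SE, adjusted p = 2.29e-06, edgeR). Rplp1 and Rplp2 rose by 1.24 and 1.27 on the log2 scale, with groups that did not overlap. With each library's trend with GC content and length removed, 2 of the 3 still passed, where 10.4% of all genes rose. With counts summed per set as well, 0 of the 3 passed, where 1.07% of all genes rose.

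Rpl29, Rplp0, Rpl41 and Rpl23a were among the large subunit genes with the largest rise. Rpl29 had 311, 367 and 459.8 CPM in distal libraries against 69.6, 106 and 148 CPM in control libraries, a log2 fold change of 1.75 ± 0.17 (SE, adjusted p = 1.6e-06, edgeR). Rpl41, which encodes the shortest member at 25 residues, had 579, 722 and 914 CPM in distal libraries against 151, 222 and 324 CPM in control libraries and rose by 1.66. In neither Rpl29 nor Rpl41 did the groups overlap.

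Genes around the exit tunnel did not move as a block. Rpl4, Rpl19, Rpl23a and Rpl26 rose, Rpl39 fell, and Rpl17, Rpl31 and Rpl35 did not pass. Rpl23a, where the signal recognition particle docks, had 33.1, 50.6 and 61.9 CPM in distal libraries against 9.1, 15.1 and 23.8 CPM in control libraries and rose by 1.63 ± 0.23 on the log2 scale (SE). Its level is uncertain, since near-identical copies held as many reads as the gene itself. Rpl4 had 1541 to 1969 CPM in distal libraries against 849 to 1130.1 CPM in control libraries and rose by 0.83 ± 0.12 on the log2 scale (SE). Rpl35 had 204, 239 and 288 CPM in distal libraries against 149.7, 291 and 398 CPM in control libraries, and its log2 fold change was -0.22 ± 0.19 (SE, adjusted p = 0.35, edgeR).

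All 9 small subunit genes along the path of the messenger RNA rose, against 24.3% of all tested genes and 20 of the 31 small subunit genes, a list put together after values were known. They included Rps2, Rps3, Rps9, Rps14, Rps15, Rps23, Rps26 and Rps28, and the 9 had log2 fold changes of 0.63 to 1.63. Of the 9, 4 passed with the trend removed and counts summed per set. In that fit 8 of the 31 small subunit genes and 1.07% of all genes rose. Rps2, at the entry of the channel, had 1188, 1505 and 1690.2 CPM in distal libraries against 378, 514 and 764 CPM in control libraries and rose by 1.57 ± 0.16 (SE, adjusted p = 1.83e-06, edgeR). Rps14 had 567, 703 and 889 CPM in distal libraries against 163, 222 and 296 CPM in control libraries and rose by 1.63. Rps15, near the decoding site, had 399, 482 and 587 CPM in distal libraries against 114, 153 and 208 CPM in control libraries and rose by 1.59. Distal and control libraries were fully apart in these 3 genes.

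The small subunit gene with the largest rise was Rps19. It had 554, 653 and 773 CPM in distal libraries against 141, 190.1 and 289 CPM in control libraries, a log2 fold change of 1.70 ± 0.17 (SE, adjusted p = 1.65e-06, edgeR). Rps18, in the head of the subunit, had 479.8, 606 and 750.2 CPM in distal libraries against 145, 201 and 246 CPM in control libraries and rose by 1.60 ± 0.15 (SE). Rps19 is the gene most often mutated in human Diamond-Blackfan anaemia, an inherited failure of red cell formation. Of 15 members known from that disease, 9 rose (60%) and 2 fell (13.3%; Rpl5 and Rpl35a), near the 68.8% and 9.09% of all 77 members. Rps7, Rps24, Rps29 and Rpl27 did not pass.

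Members whose rise depended least on the processing of the counts were picked out after their values were seen. In all 36 alternatives, 15 genes kept their call, among them Rpl4, Rpl6, Rpl7a, Rpl10, Rpl19, Rpl23a, Rpl26, Rpl32, Rpl37, Rpl37a, Rps3, Rps18 and Rps26. No alternative changed how reads shared with near-identical copies were counted. Such copies held 107% as many counts as the gene for Rpl23a and 67.7% for Rpl26. Rps3, at the entry of the messenger RNA channel and also known as a DNA repair enzyme, had 1141, 1418 and 1597 CPM in distal libraries (lowest, median, highest) against 519, 579 and 749.7 CPM in control libraries. It rose by 1.18 on the log2 scale and by 1.33 when each library's trend with the GC content and length of transcripts was removed. X-linked Rpl10, close to the peptidyl transferase centre, had 544, 669 and 731 CPM in distal libraries against 229, 337 and 431 CPM in control libraries. Its rise was 0.96 as measured and 1.20 with the trend removed. Rpl7a had 398, 556 and 659 CPM in distal libraries against 142, 197 and 254 CPM in control libraries, with rises of 1.51 and 1.28. In these 3 genes no distal library reached down to a control library.

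The 3 members without a near-identical copy elsewhere in the annotation, Rpl8 and Rps3 among them, all rose. Rpl8, which lies at the peptidyl transferase centre, had 899, 999 and 1090.0 CPM in distal libraries against 246, 339.7 and 446 CPM in control libraries, a log2 fold change of 1.54 ± 0.15 (SE, adjusted p = 1.65e-06, edgeR). Rpsa, the laminin receptor precursor of the small subunit, had 741, 952 and 1067 CPM in distal libraries against 317, 377 and 526.5 CPM in control libraries and rose by 1.23. Rpl38, known in mouse for selective translation of Hox mRNAs, had 119, 155 and 219.8 CPM in distal libraries against 42.5, 67.3 and 84.0 CPM in control libraries and rose by 1.28. None of these groups overlapped. Smaller rises with overlapping groups were measured for Rpl9 (0.45), Rpl22 (0.50) and Rps12 (0.76), all of which passed with the trend removed too.

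Some members sat near 0. Rps6, the classical substrate of S6 kinase, had 315, 393 and 461 CPM in distal libraries against 247, 372 and 528 CPM in control libraries, a log2 fold change of 0.01 ± 0.18 (SE, adjusted p = 0.98, edgeR). X-linked Rps4x had 793, 926 and 1019 CPM in distal libraries against 619, 835 and 1368 CPM in control libraries, with a fold change of 0.05. Rps7 had 235, 289 and 349 CPM in distal libraries against 227, 291 and 445 CPM in control libraries, with a fold change of -0.08. Rpl7 had 716, 828 and 1006 CPM in distal libraries against 737, 851 and 1357 CPM in control libraries, with a fold change of -0.09. In all 4 the distal libraries lay nearly or fully within the wider control range, and the signs for Rps7 and Rpl7 turned with upper-quartile scaling, as did that of Rps6 with RLE scaling.

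**Figure D3:**
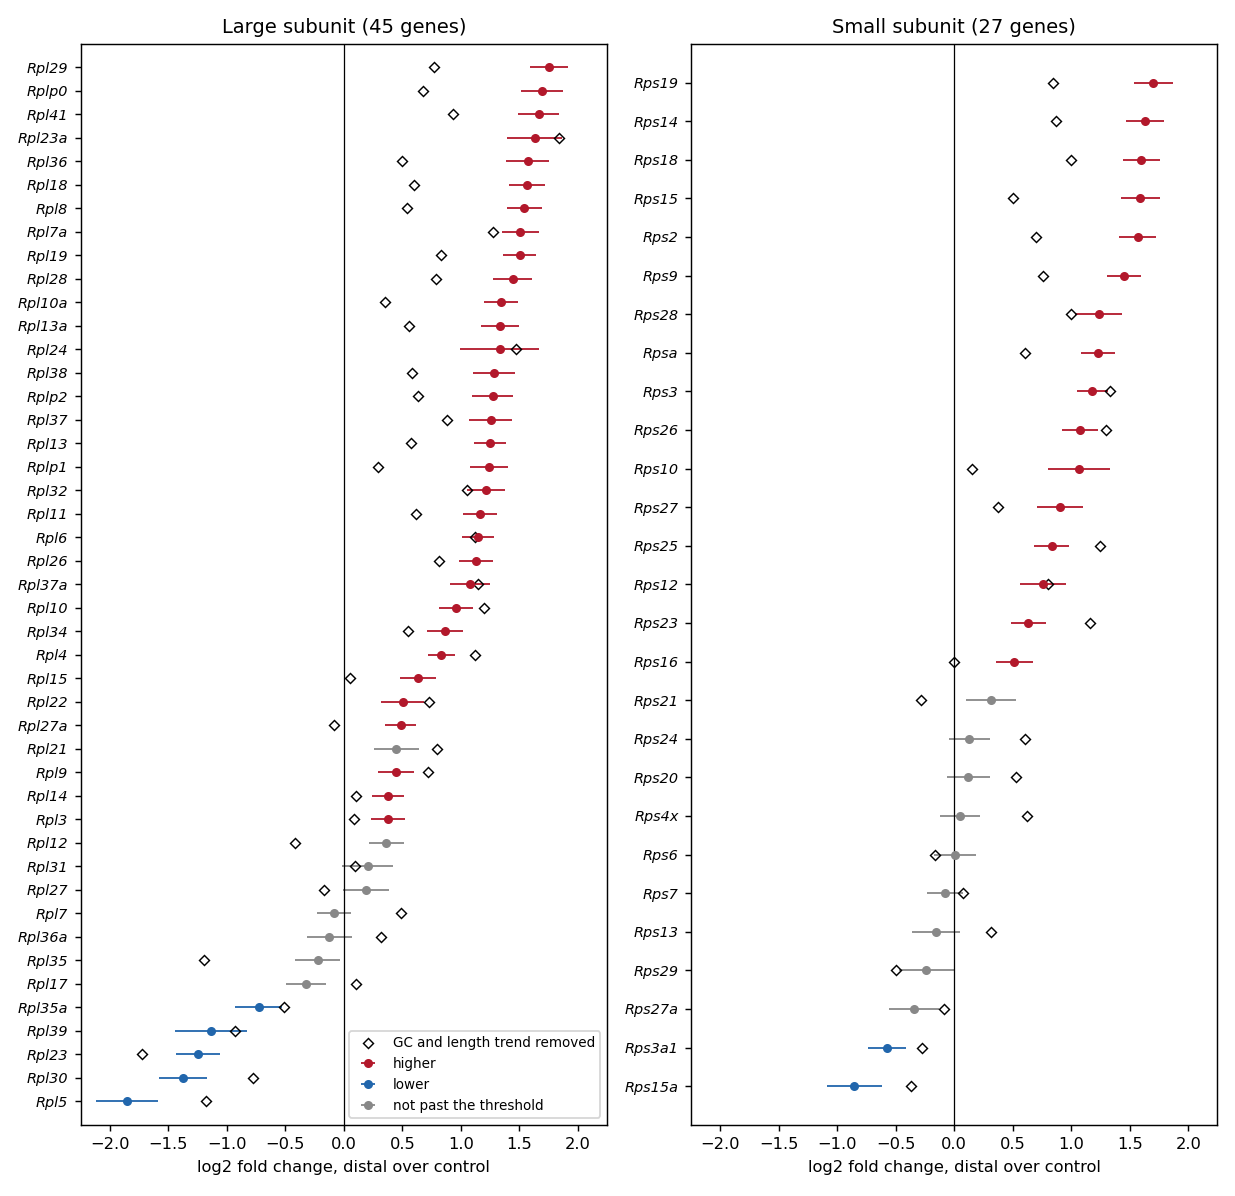
Log2 fold change, distal over control, of 45 large and 27 small subunit genes, with SE (filled; red higher, blue lower, grey not past the threshold), and the same after removal of the GC and length trend (open diamonds). Values run from -1.86 for Rpl5 to 1.75 for Rpl29, and the 7 genes that fell sit at the bottom of each panel.

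Levels per kilobase of transcript, which allow a rough comparison of genes, differed in order between the groups. In distal cells Rplp0 averaged 3149 CPM per kb, Rpl23 1189 and Rpl5 766. In control cells Rpl23 averaged 2818 CPM per kb, Rpl5 2775 and Rplp0 974. Averaged over all libraries these were the 3 highest members by the median length of annotated transcripts (Rpl5 844, Rpl23 658 and Rplp0 774 bases). Their principal coding transcripts have 2045, 1059 and 1358 bases. Levels between genes, and with them the ranking, therefore depend on the transcript taken. In distal cells the 7 genes that fell had a median of 712 CPM per kb, close to the median of 714 of the 53 that rose. In control cells the medians were 1657 for the 7 and 355 for the 53. As the split is by fold change, these medians are a description with no test.

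**Figure D4:**
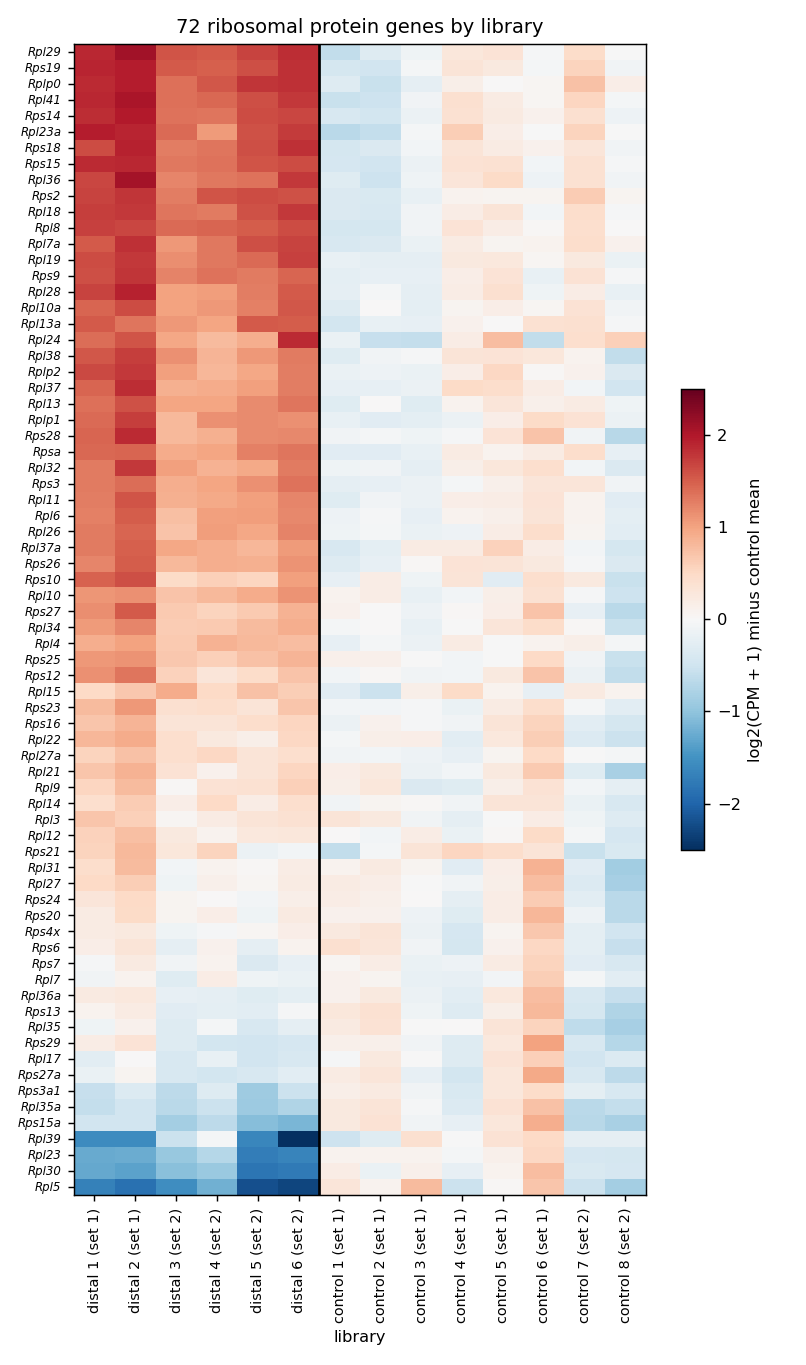
Log2(CPM + 1) of 72 of the 77 genes in each library minus the mean of the 8 control libraries, with genes ordered by fold change (colour scale from -2.5 to 2.5). All 6 distal libraries are above the control mean for each gene drawn that rose and below it for each of the 7 that fell.

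Fold changes rose with the GC content of the transcript, among ribosomal protein genes as among all genes. Across the 77 genes Pearson's r between fold change and GC content was 0.64 (Spearman's rho 0.68), and across 11654 tested genes with a GC value it was 0.70 (rho 0.73). These are relations across genes, which share their libraries and are not independent. Of the 26 members with the lowest GC content (43.4 to 49.4%) 10 rose and 6 fell. Of the 25 in the middle (49.7 to 54.0%) 20 rose and 1 fell, and of the 26 at the top (54.0 to 60.8%) 23 rose and none fell. Of 9424 other tested genes in the same range of GC content 2634 rose and 1769 fell. Taking only the principal coding transcript of each gene, the 7 genes that fell lay between 42.7 and 48.7% GC and the 53 that rose between 45.2 and 60.8%. The difference in depth runs along with the groups, and its part in the GC relation was not tested.

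When each library's trend with GC content and length was removed, most ribosomal protein genes were still higher in distal cells. Of the 77 genes 50 rose and 7 fell, where 10.4% of all genes rose and 8.57% fell. The median log2 fold change was 0.60, against 0.03 over all genes, and r with GC content was 0.03. These 3 classes of GC content then had medians of 0.56, 0.62 and 0.60. Among large subunit genes 30 rose and 7 fell (median 0.58), and among small subunit genes 20 rose and none fell (median 0.63). The largest rises by then were Rpl23a at 1.84 and Rpl24 at 1.47, while Rplp0, Rps19 and Rpl29 rose by 0.68, 0.84 and 0.77. Rpl23a and Rpl24 are uncertain, since near-identical copies held 107% and 73.0% as many counts as the gene. Rpl24 was also low, at 9.87 to 21.8 CPM in distal and 3.08 to 9.65 CPM in control libraries.

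**Figure D5:**
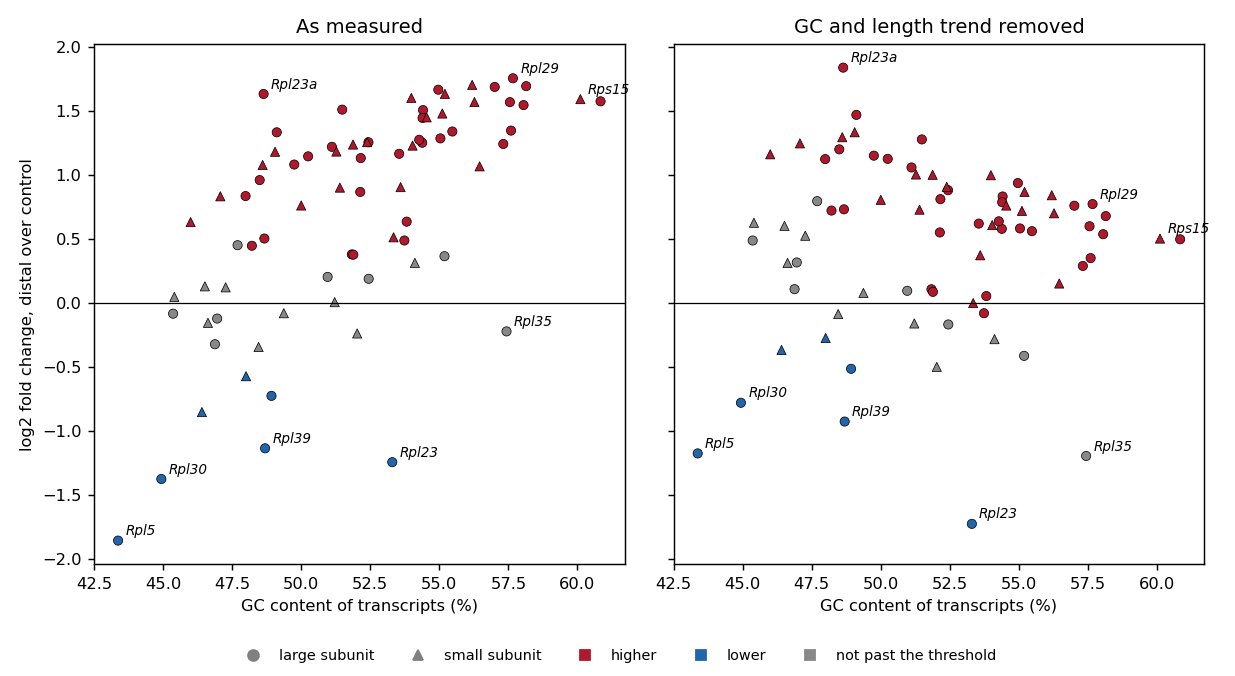
Log2 fold change, distal over control, of the 77 genes against the GC content of their transcripts, as measured (left) and with the GC and length trend removed (right); colours give the call as measured and shapes the subunit. The slope on the left (r = 0.64) is gone on the right (r = 0.03). There the 7 genes that fell and Rpl35 stay below 0, and other genes, such as Rpl12, also lie below it.

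Of the 7 genes that fell, 5 kept their call with the trend removed. Rpl23 stood at -1.73 (adjusted p = 1.9e-05, edgeR), Rpl5 at -1.18 (adjusted p = 0.0025), Rpl39 at -0.93 (adjusted p = 0.031), Rpl30 at -0.78 (adjusted p = 0.0033) and Rpl35a at -0.52 (adjusted p = 0.034). Rps15a (-0.37) and Rps3a1 (-0.28) lost theirs. Rpl35 (-1.20) and Rpl12 (-0.41) passed as lower. Rpl12, near the stalk, had 271, 308 and 431 CPM in distal libraries against 191, 251 and 357 CPM in control libraries, and 0.36 before the removal.

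The value for Rpl23 rests on the transcripts taken. Its annotated transcripts have a median GC content of 53.3%, but its principal coding transcript has 46.4%. With the principal transcript of each gene in the trend, an alternative added after the data were seen, Rpl23 stood at -0.85, Rpl5 at -1.15, Rpl30 at -1.10, Rpl39 at -0.98, Rpl35a at -0.43 and Rpl35 at -1.19, each still past the threshold. Rpl12 was at 0.08 and no longer passed. Then 48 members rose and 8 fell, where 9.85% of all genes rose and 7.99% fell, the added genes lower being Rps7 and Rps29 besides Rpl35.

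Other members turned at the threshold with the trend. Rps4x (0.63), Rps20 (0.52), Rps24 (0.60), Rpl7 (0.49) and Rpl21 (0.79) passed as higher only after the removal. Before it, Rps20 had 370.4, 451 and 549 CPM in distal libraries against 248, 395 and 708 CPM in control libraries, and a fold change of 0.12. Rps24 had 377, 431 and 563 CPM in distal libraries against 248, 419.5 and 617 CPM in control libraries, and 0.13. Rpl21 had 291, 368 and 495 CPM in distal libraries against 153, 280.3 and 427 CPM in control libraries, and 0.45. With the principal transcript Rps20 and Rps24 passed and Rps4x, Rpl7 and Rpl21 did not.

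Calls as higher were lost by 8 genes when the trend was removed. Rplp1 had 761, 976 and 1442 CPM in distal libraries against 356, 394 and 605 CPM in control libraries, and its 1.24 became 0.29. Rps27 had 233, 271 and 464 CPM in distal libraries against 98.7, 161 and 261 CPM in control libraries, and its 0.90 became 0.37. Rpl15 had 305, 339 and 412 CPM in distal libraries against 149, 230.1 and 303 CPM in control libraries, and its 0.63 became 0.05. These 3 had separated or nearly separated groups as measured.

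The other five were smaller or low. Rps16 had 383, 434 and 559 CPM in distal libraries against 226, 295 and 453 CPM in control libraries, and its 0.51 became -0.002. Rpl27a had 226, 251 and 303 CPM in distal libraries against 156, 174 and 255 CPM in control libraries, and its 0.49 became -0.08. Rpl14 had 638, 759.6 and 879.7 CPM in distal libraries against 433, 558 and 710.4 CPM in control libraries, and its 0.38 became 0.11. Each of these groups overlapped. Rpl3, which helps shape the site of peptide bond formation, had 510.0, 634 and 807 CPM in distal libraries against 395, 479 and 620.3 CPM in control libraries, and its 0.38 became 0.09. Rps10 had only 12.4, 16.1 and 28.5 CPM in distal libraries against 5.5, 8.9 and 11.8 CPM in control libraries, and its 1.07 became 0.15.

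A further set of members passed in neither fit and changed sign between them. Rpl17 had 389.6, 429 and 544 CPM in distal libraries against 386, 536 and 816 CPM in control libraries. Rpl36a had 158, 168 and 234 CPM in distal libraries against 130.1, 193 and 334 CPM in control libraries. Rps13 had 347, 386 and 484 CPM in distal libraries against 249, 430.2 and 745 CPM in control libraries. Their fold changes of -0.32, -0.12 and -0.16 became 0.11, 0.31 and 0.31. Rpl27 had 163, 198 and 268 CPM in distal libraries against 98.5, 184 and 300.2 CPM in control libraries, and Rps21 had 127, 189.9 and 249.8 CPM in distal libraries against 91.4, 156 and 204 CPM in control libraries. Their 0.19 and 0.31 became -0.17 and -0.28.

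The sets of a region were also compared. In a model with the 4 sets, set 2 minus set 1 gave a median log2 difference over the 77 genes of -0.34 in distal and -0.28 in control cells, against 0.05 and 0.04 over all genes. The difference was negative in 73 of 77 members in distal and 50 of 77 in control cells. At an adjusted p under 0.05 0% of all tested genes passed in either region, and 0 members (edgeR). At an unadjusted p under 0.05, 14 members in distal and 25 in control cells passed, and of all genes 7.83% and 8.24%. Without the filter on low counts 81 of 26607 genes passed between the distal sets, with 0 members, and 113 between the control sets, with 1 member.

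With counts summed per set, 2 sets against 2, 49 members rose and 4 fell, where 18.8% of all genes rose and 11.7% fell. With the trend removed as well, 18 rose and only Rpl23 fell, where 1.07% of all genes rose and 1.61% fell, 2.69% in all. This fit took the median GC content of annotated transcripts, on which the value for Rpl23 rests. The principal-transcript trend was not run with summed sets. The 18 included Rpl4, Rpl23a, Rps3, Rps18 and Rps26. In the libraries over 4000000 counts, 2 distal and 8 control, 37 members rose and Rpl5, Rpl23 and Rpl30 fell, where 6.98% of all genes rose and 4.63% fell. Both distal libraries in this fit were of set 2, so it also leaves out distal set 1. With the set number taken as shared by both regions and added as a covariate, an alternative added after the data were seen, 58 members rose and 5 fell, where 23.6% of all genes rose and 24.6% fell. Rps15a and Rpl35a then lost their calls. With the trend removed as well, 53 rose and Rpl5, Rpl23, Rpl30, Rpl35 and Rpl39 fell, where 8.78% of all genes rose and 7.75% fell.

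Near-identical copies could share reads with the members, and the labels do not say how the counting treated such reads. Annotated transcripts of other genes matched the coding sequence of 74 of the 77 members at 95% identity or more, and the other 3, which include Rpl8 and Rps3, had no such copy. The 11 members with at most 1 copy had a median log2 fold change of 1.18, and 9 of them rose while 1 fell. Of all 77 members 68.8% rose and 9.09% fell. Of 133 copies tested 63 rose and 18 fell in distal cells, where 24.3% and 24.1% of all tested genes did. The copy of Rpl5 with an identical coding sequence, Gm15500, averaged 48.6 CPM in distal and 154.7 CPM in control libraries and fell by 1.66 on the log2 scale. The single copy of Rpl23, Gm9794, averaged 41.0 CPM in distal and 60.4 CPM in control libraries and fell by 0.56. Rps10, Rpl23a, Rpl24 and Rpl26 are the least certain, since copies held 98.8, 107, 73.0 and 67.7% as many counts as the gene.

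Small nucleolar RNAs, which guide the modification of ribosomal RNA, lie inside 30 of the members. Only 6 of their 58 rows could be tested. Rows this low can pass the filter on counts through the higher group alone, so their direction is no support for that of the host. The rows inside Rpl5 (Gm26387) and Rpl30 (Gm24523) fell by 2.42 and 2.22 on the log2 scale. Their median CPM was 0.57 and 1.42 in distal against 2.37 and 8.93 in control libraries. Those inside Rpl6 (Gm26205) and Rpl12 (Snora65) rose by 1.66 and 1.52, and Rpl6 rose as well while Rpl12 did not pass. The rows inside Rpl27a (Gm24888, -0.79) and Rpl37 (Snord72, -0.10) did not pass, while both hosts rose. None of the 4 that passed did so with the trend removed, and with counts summed per set only Gm24523 did (adjusted p = 0.0174, edgeR). Reads of these rows may belong to the host, which the counting cannot separate without its settings.

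Fau, a fusion gene with a ubiquitin-like part, and Rack1, the scaffold protein of the small subunit, rose as well. Fau, which yields a small subunit protein, had 220.2, 255 and 301 CPM in distal libraries against 61.8, 86.6 and 124 CPM in control libraries, a log2 fold change of 1.50 ± 0.17 (SE, adjusted p = 3.87e-06, edgeR). Rack1 rose by 1.21. Fau and Rack1 still passed with the trend removed, at 0.50 and 1.09. Rps27a, a member fused to ubiquitin, did not pass (-0.35).

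Paralogs of ribosomal proteins were mixed: of 6 tested, 3 rose (50%) and 1 fell (16.7%), against 24.3% and 24.1% of all tested genes. Their median log2 fold change was 0.12. Rps27l, a p53-regulated paralog of Rps27, had 391, 459 and 569 CPM in distal libraries against 504, 675 and 953 CPM in control libraries, and fell by 0.56 on the log2 scale. That sign turned to 0.25 with the trend removed. Rps4l rose by 1.07, Rps27rt by 1.46 and Rpl7l1 by 0.45, and Rps4l was at -0.08 with the trend removed. All of these groups overlapped.

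Assembly factors, which build the subunits in the nucleus, went in both directions. Of 48 small subunit assembly factors 29.2% rose and 39.6% fell (14 and 19 genes, median -0.27), against 24.3% and 24.1% of all tested genes. Of 52 large subunit factors 38.5% rose and 28.8% fell (20 and 15 genes, median -0.05). With the trend removed, where 10.4% of all genes rose and 8.57% fell, it was 12.5% each way for small subunit factors (6 and 6) and 28.8% and 7.69% for large subunit factors (15 and 4). Eif6, which keeps new large subunits from joining too early, had 363, 461 and 496 CPM in distal libraries against 102, 129 and 199 CPM in control libraries, a log2 fold change of 1.66 ± 0.17 (SE, adjusted p = 1.98e-06, edgeR). Wdr18, Noc2l and Grwd1 rose by 1.44, 1.16 and 1.37. Among small subunit factors Rrp9 and Emg1 rose by 1.58 and 1.10. Esf1 and the box C/D core protein Nop58 fell by 1.53 and 1.24. Nop58 had 207, 230.0 and 432 CPM in distal libraries against 499.7, 657 and 798 CPM in control libraries.

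RNA polymerase I genes and regulators were called in both directions, where 24.3% of all tested genes rose and 24.1% fell. Of 20 RNA polymerase I genes 7 rose (35%) and 5 fell (25%). After trend removal 2 rose and 2 fell (10% each), where 10.4% of all genes rose and 8.57% fell. Cd3eap, Polr2e and Polr2f rose by 1.31, 1.33 and 1.48, and Taf1d fell by 1.52. Taf1d still passed with the trend removed (-0.66), and Cd3eap (0.39), Polr2e (0.36) and Polr2f (0.43) did not. Of 23 regulators tested 7 rose (30.4%) and 8 fell (34.8%), which became 2 and 3 after trend removal. Myc, a driver of ribosome production, had 83.9, 112 and 153 CPM in distal libraries against 40.4, 51.2 and 61.0 CPM in control libraries, a log2 fold change of 1.16 ± 0.16 (SE, adjusted p = 2.02e-05, edgeR). Eif4ebp1, an mTOR target that holds back translation, rose by 1.54, and Rptor, a subunit of mTOR complex 1, by 1.16. Larp4b fell by 1.20. With the trend removed Myc (0.41), Eif4ebp1 (1.36) and Larp4b (-0.55) still passed and Rptor (0.56) did not.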

How the data were processed

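Per the labels' protocols, Smart-seq2 cDNA was made into Nextera XT libraries, called minibulk. The submitters' processing notes name HISAT2, featureCounts and mouse build mm10/GRCm38, with no settings for reads that match several places. The authors deposited raw counts per gene symbol. From these, genes were filtered (filterByExpr), scaled by TMM and tested with edgeR 4.0.16 in R 4.3.3 (quasi-likelihood, robust, 2-sided, Benjamini-Hochberg over 11757 genes). Libraries were grouped by their titles, and sets were taken from the descriptions. SEs are the fold change over the root of F. GC content and length are medians over GENCODE vM21 transcripts, and each library's trend with both was fitted by natural splines (4 degrees of freedom) and entered as offsets for 11654 genes. limma 3.58.1 (voom) and DESeq2 1.42.0 were alternatives. The procedure was tested on simulated data. Members, lists, roles and the rule for named genes (all members that fell, the 5 per subunit that rose most, the 4 nearest 0, the 3 highest per kb, those whose call or sign turned with the trend, and up to 4 genes per list) were chosen with earlier results of these data known. The main model holds the region alone. Some genes that entered every fit and count are not reported here by name. In none of the 43 pairs of libraries of a region did counts agree within sampling noise.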

Additional observations from a re-analysis of the deposited data

Results flagged for a closer look

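In 84 groups of values checked, 7 had a library standing apart from its group by the gap criterion used, and chance alone flags about 1 group in 20. Control replicate 6 held the highest control value of Rpl30 (1478 CPM), Rpl7 (1357 CPM), Rps20 (708 CPM) and Rpl27a (255 CPM). Control replicate 7 held the highest control value of Rplp0 (1217 CPM) and Rps2 (764 CPM), still below every distal library. Control replicate 3 had the highest ratio of large to small subunit counts, 1.85. Without control replicate 6, 55 members rose and 7 fell, and without control replicate 7, 51 and 7.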

How the results depend on the processing

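Of the 53 members that rose, 15 kept their call in all 36 alternatives and 37 in the 31 without trend removal, and 50 of 53 stayed positive throughout. Of the 7 that fell, 6 stayed negative throughout, and Rps15a reached 0.0027 with the trend removed and counts summed per set. Leaving out each library gave 50 to 55 members higher and 6 to 7 lower, and 2685 to 3210 genes higher and 2099 to 3091 lower. Members higher numbered 18 with the trend removed and counts summed per set. Members lower numbered 4 with summed sets, 1 with summed sets and the trend removed, 3 in libraries over 4000000 counts, 4 without distal set 2, 2 without control set 1 and 3 with the block by description numbers. Over all genes, 2853 higher and 2828 lower became 1209 and 999 with the trend removed, 1148 and 931 with the principal-transcript trend, 125 and 188 with summed sets and the trend removed, 821 and 544 in libraries over 4000000 counts, 1187 and 1113 without control set 1, and 1023 and 903 with the set number as covariate and the trend removed. Genes lower were 1376 with summed sets and 1674 without distal set 1. Between the control sets 1 member passed with no filter. The members' share of counts was 5.51% in distal libraries without set 2 and 2.20% in control libraries without set 1. Upper-quartile scaling moved the median of all genes from -0.16 to 0.00 and of the members to 1.13, with 55 higher and 6 lower.

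Same-numbered libraries of the regions correlated at -0.02 to 0.11 (median 0.05), and other pairs at -0.13 to 0.11 (median -0.02). Values this low cannot decide whether the numbers pair libraries. The replicate block gave 51 members higher and 7 lower (2755 and 2616 genes), and with the trend removed 1025 genes higher and 929 lower. Of 6 distal libraries 2 correlated best with their own number. The descriptions give other numbers, shared by 4 pairs of libraries that correlated at -0.07 to 0.03. As a block, added after the data were seen, they gave 46 members higher and 3 lower (1210 and 1382 genes).

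Signs turned in the genes that follow, among them 2 paralogs (Rps4l, Rps27l) and members called as measured (Rpl15, Rpl27a, Rps15a, Rps16), and the cause was not tested. Rps6 was at -0.0082 with RLE scaling and with DESeq2, -0.047 without control set 2, -0.028 without distal set 1, -0.031 with the replicate block and -0.042 with no filter, where Rps4x was at -0.00082. Without control set 1, Rps7 was at 0.29, Rpl7 0.10, Rpl17 0.13, Rpl35 0.58, Rpl36a 0.43 and Rps13 0.51, and without distal set 2 Rps7 was at 0.23, Rpl7 0.14, Rpl35 0.10, Rpl36a 0.35 and Rps13 0.22. With summed sets Rps7 was at 0.25, Rpl7 0.17, Rpl17 0.032, Rpl35 0.21, Rpl36a 0.30 and Rps13 0.26. In libraries over 4000000 counts Rps6 was at -0.11, Rps4x -0.14, Rpl27 -0.067 and Rps24 -0.023. Upper-quartile scaling gave Rps7 0.083, Rpl7 0.080, Rpl36a 0.047 and Rps13 0.013, thinning to the smallest total Rps7 0.058 and Rpl7 0.0041, and a filter at 5 CPM Rps7 0.026 and Rpl7 0.021. With the trend removed Rps6 was at -0.16, Rps7 0.077, Rpl7 0.49, Rpl12 -0.41, Rpl17 0.11, Rpl27 -0.17, Rpl27a -0.082, Rpl36a 0.31, Rps13 0.31, Rps16 -0.0021, Rps21 -0.28, Rps4l -0.076 and Rps27l 0.25. With the replicate block as well, they were -0.25 for Rps6, 0.015 for Rps7, 0.45 for Rpl7, -0.49 for Rpl12, 0.011 for Rpl17, -0.30 for Rpl27, -0.077 for Rpl27a, 0.21 for Rpl36a, 0.17 for Rps13, -0.086 for Rps16, -0.41 for Rps21, -0.21 for Rps4l and 0.14 for Rps27l. With summed sets and the trend removed Rps7 was at 0.22, Rpl7 0.62, Rpl12 -0.27, Rpl15 -0.038, Rpl17 0.33, Rpl27a -0.038, Rpl36a 0.58, Rps13 0.60, Rps21 -0.050 and Rps27l 0.49. With the principal-transcript trend Rps6 was at -0.017, Rpl7 0.38, Rpl17 0.010, Rpl21 -0.24, Rpl27 -0.20, Rpl36a 0.33, Rps21 -0.053, Rps4l -0.14 and Rps27l 0.0092. With the block by description numbers Rps7 was at 0.19, Rpl7 0.088, Rpl35 0.17, Rpl36a 0.21 and Rps13 0.21, and with the set number as covariate Rps7 was at 0.080, Rpl35 0.098, Rpl36a 0.14 and Rps13 0.13. With the trend removed as well, Rps6 was at -0.0086, Rps7 0.18, Rpl7 0.58, Rpl12 -0.27, Rpl15 -0.038, Rpl17 0.30, Rpl27a -0.061, Rpl36a 0.54, Rps13 0.59, Rps21 -0.060 and Rps27l 0.44. Leaving out each library gave -0.066 to 0.16 for Rps6, -0.015 to 0.20 for Rps4x, -0.13 to 0.076 for Rps7, -0.12 to 0.032 for Rpl7, -0.20 to 0.034 for Rpl36a and -0.24 to 0.0081 for Rps13.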
